A study of Canis lupus familiaris with 18 samples.

Results

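A set of 106 genes was higher under low and high light than in the dark in MDCKI cells that carry a light-driven adenylyl cyclase. In parental MDCKI cells, which do not carry it, these genes were higher in low light than in the dark. They were picked from the 32220 gene IDs of the count tables by their measured levels. For each line and light dose, the fold was the log2 ratio of the mean CPM (a gene's reads scaled to the sum of its library's gene reads, the unit of all levels given here) of the lit libraries to that of the dark libraries, with 1 CPM added to both. A gene belonged to the set when this fold reached 1 in bPAC low light, 1 in parental low light and 0.5 in bPAC high light, and when its highest group mean reached 10 CPM. The rule left out 39 IDs by name, of which 1 met the thresholds. Of the 5949 other genes with a group mean of at least 10 CPM, 369 met the bPAC low light threshold, 232 the parental low light threshold and 150 both. The bPAC high light threshold took these 150 to 106. The direction of change in these 3 comparisons is therefore a choice and not a result.

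MDCKI is a line of epithelial cells from dog kidney. The bPAC cells carry a bacterial photoactivated adenylyl cyclase, an enzyme that makes cyclic AMP under blue light. Cells of each line, in medium with 0.5% serum, were kept dark or lit with a low or a high dose for 2 h, from 16 h after plating. There were 3 bPAC dark, 4 bPAC low light and 3 bPAC high light libraries, and 3 parental dark, 3 parental low light and 2 parental high light libraries. All cells, dark ones included, were plated in the same medium, and the labels do not give the light doses as numbers or say whether the bPAC line is 1 clone. Nothing in the labels says that libraries of a group came from separate cultures, and if they did not, the spread behind each p-value is technical.

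Cyclic AMP binds the regulatory subunits of protein kinase A and frees its catalytic subunits, which phosphorylate transcription factors of the CREB family and so raise the transcription of their target genes. In epithelial cells of the kidney tubule the same pathway carries hormone signals that control the transport of water and salt. Parental cells lack the light-driven enzyme, so a gene that is higher under light in both lines is set apart by this design from one that is higher in bPAC cells alone. None of the 32220 IDs could be matched to a gene symbol, so genes are given by ID, no role is assigned to any of them, and lists of pathway and cell type marker genes could not be applied.

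Each library held between 2638511 and 9610144 reads on genes, and every library held at least 1 read for each of the 106 genes. The reads come from the 3' ends of transcripts, so a level does not scale with the length of a transcript but does depend on how its end is annotated. Reads that overlapped more than 1 gene were more frequent in every lit library than in any dark library of its line. They made up 0.0475 to 0.0581 per 100 gene reads in bPAC low light and 0.0437 to 0.0584 in bPAC high light, against 0.0352 to 0.0411 in bPAC dark. The values were 0.0528 to 0.0605 in parental low light and 0.0451 to 0.0515 in parental high light, against 0.0329 to 0.0404 in parental dark. The share of reads without a unique place was 41.7% to 44.4% in bPAC high light, against 38.5% to 39.9% in bPAC dark. In bPAC low light it was 37.5% to 40.7%. In parental cells it was 39.6% to 40.4% in the dark, 39.7% to 42.0% in low light and 38.9% and 44.2% in high light. The part of these shares in the changes of the 106 genes was not tested.

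Together the 106 genes took 0.8% to 1.36% of the gene reads of dark libraries and 1.89% to 3.2% of those of lit libraries. Their summed level was 11061 ± 2336 CPM in bPAC dark (SD, n = 3), 28612 ± 3716 CPM in bPAC low light (SD, n = 4) and 22363 ± 3603 CPM in bPAC high light (SD, n = 3). In parental cells it was 10431 ± 2064 CPM in the dark (SD, n = 3), 27936 ± 2245 CPM in low light (SD, n = 3) and 19945 ± 1458 CPM in high light (SD, n = 2). In both lines the sum was highest in low light and lowest in the dark, with high light between them. The low light sum was 2.59 times the dark sum in bPAC cells and 2.68 times in parental cells, and the high light sum was 2.02 times the dark sum in bPAC cells and 1.91 times in parental cells. The parental high light libraries, which entered the rule only through the highest group mean, held 18914 and 20976 CPM. The parental dark libraries held 11697, 8050 and 11546 CPM. Both parental high light libraries lay above every dark library and below every low light library of their line.

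**Figure D1:**
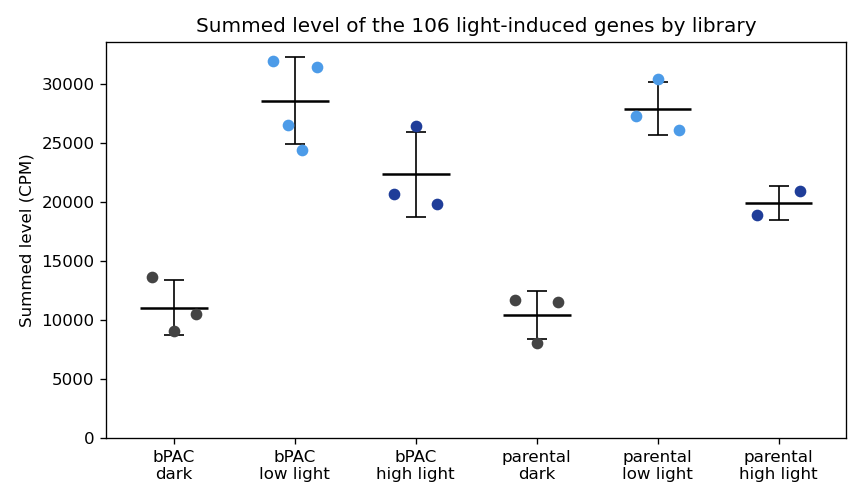
Summed level of the 106 genes (vertical axis, CPM) in each of the 18 libraries, grouped by line and light dose; dots are libraries, the wide line is the group mean and the bar the SD. Dark libraries lay between 8050 and 13626 CPM, and every lit library lay above them, at 18914 CPM or more.

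The most abundant gene, ENSCAFG00000010052, held 12.0% of the summed level and the 10 most abundant held 56.1%. ENSCAFG00000010052 stood at 1393 ± 660 CPM in bPAC dark (SD, n = 3), 4251 ± 1624 CPM in bPAC low light (SD, n = 4) and 2630 ± 621 CPM in bPAC high light (SD, n = 3). In parental cells it stood at 936 ± 275 CPM in the dark (SD, n = 3), 3590 ± 968 CPM in low light (SD, n = 3) and 1638 ± 104 CPM in high light (SD, n = 2). The median of the 106 genes was 32.3 CPM in bPAC dark and 28.4 CPM in parental dark. Over all 5949 genes of at least 10 CPM the medians were 41.8 and 42.0 CPM. In low light the medians were 91.4 CPM in bPAC and 92.6 CPM in parental cells, against 36.6 and 40.6 CPM over all these genes. Within groups, the 106 genes varied about as much as other genes when lit and more in the dark. Their median coefficient of variation was 23.7% in bPAC dark and 22.4% in parental dark, where all 5949 genes had 16.4% and 18.1%, and it was 20.3% in bPAC low light, where all genes had 21.5%.

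The libraries of a group differed as a whole. Replicate numbers given here are only the order in which the libraries of a group were deposited. Of the 3 bPAC dark libraries, replicate 2 was lowest for 78 of the 106 genes and replicate 1 highest for 82. Of the 3 parental dark libraries, replicate 2 was lowest for 85 and replicate 3 highest for 66. Of the bPAC low light libraries, replicates 1 and 4 had summed levels of 31997 and 31488 CPM and replicates 2 and 3 had 26502 and 24460 CPM. In bPAC high light, replicate 2 was highest for 76 genes. The number of members moved with single dark libraries. Without bPAC dark replicate 2, 78 genes met the rule, 77 of them among the 106, and without bPAC dark replicate 1, 130 did, with all 106 among them.

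In low light against the dark, the comparison that the rule used in both lines, the folds of the 106 genes ran from 1.01 to 2.36 on the log2 scale in bPAC cells, with a median of 1.36, and from 1.00 to 2.18 in parental cells, with a median of 1.36. For all 106 genes every low light library lay above every dark library of its line, in bPAC and in parental cells alike. Among all genes of at least 10 CPM, 17.4% in bPAC and 18.2% in parental cells did so. The edgeR quasi-likelihood test (adjusted p under 0.05 over 8530 genes), given as a description here, called all 106 higher in bPAC low light and 105 in parental low light, where 17.2% and 6.76% of all genes were called higher. The exception was ENSCAFG00000004757, at 7.69, 11.4 and 6.69 CPM in parental low light against 4.16, 3.63 and 3.15 CPM in parental dark.

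In bPAC high light, for which the rule asked a fold of 0.5, the folds ran from 0.51 to 1.56, with a median of 0.88. With libraries scaled by their sums, they did not overlap with the dark ones for 86 of the 106 genes. Of all genes of at least 10 CPM, 12.7% were higher without overlap. The test scales libraries by TMM, that is, by the bulk of genes. On that scale 102 of the 106 genes were higher without overlap, against 25.97% of all genes, and the median fold was 1.18. The test called 99 higher, where 12.7% of all genes were called higher. In all, 98 of the 106 were called higher in each of the 3 comparisons of the rule, and the other 8 in all but 1 of them.

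The 8 genes that lay farthest inside the thresholds come first here. They are described by their values, since those chose them. ENSCAFG00000037724 was low in the dark, at 6.18, 3.21 and 4.40 CPM in bPAC dark. It stood at 27.6, 24.6, 17.1 and 18.6 CPM in bPAC low light and at 14.5, 20.6 and 11.4 CPM in bPAC high light. In parental cells it stood at 3.85, 3.93 and 6.29 CPM in the dark, 13.3, 26.6 and 12.9 CPM in low light and 11.3 and 12.0 CPM in high light. No lit library of this gene overlapped with a dark one in either line, and its dark means, 4.59 CPM in bPAC and 4.69 CPM in parental cells, differed by less than their SDs. ENSCAFG00000012754 averaged 47.6 ± 12.9 CPM in bPAC dark (SD, n = 3), 161 ± 29.3 CPM in bPAC low light (SD, n = 4) and 107 ± 11.8 CPM in bPAC high light (SD, n = 3). In parental cells it averaged 43.2 ± 7.50 CPM in the dark (SD, n = 3), 160 ± 18.5 CPM in low light (SD, n = 3) and 85.3 ± 11.4 CPM in high light (SD, n = 2). The dark and low light means of this gene thus differed between the lines by less than their SDs. ENSCAFG00000032459, ENSCAFG00000020151, ENSCAFG00000014920, ENSCAFG00000029882 and ENSCAFG00000000956 were also among these genes, with log2 folds of 1.57 to 2.19 in bPAC low light, 1.57 to 2.18 in parental low light and 1.01 to 1.51 in bPAC high light. The remaining one, ENSCAFG00000017937, had another course in parental cells and is described further on.

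At the edge of the set, ENSCAFG00000000228 was nearest inside the bPAC low light threshold with a fold of 1.01 and ENSCAFG00000011389 nearest outside with 0.99. For the parental low light threshold these were ENSCAFG00000004833 with 1.00 and ENSCAFG00000020146 with 0.98, and for the bPAC high light threshold ENSCAFG00000010756 with 0.51 and ENSCAFG00000019245 with 0.48. For the level threshold they were ENSCAFG00000005215, with a highest group mean of 10.7 CPM, and ENSCAFG00000025524, with 9.74 CPM. Failing 1 threshold alone kept out 25, 100, 44 and 15 genes in this order.

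The high dose in parental cells is the lit condition for which the rule set no fold threshold. Its libraries entered the rule only through the highest group mean. The 3 dark libraries they are set against are those of a comparison the rule did use, so that chance lows in the dark raise these folds too. The 106 genes had a median log2 fold of 0.81 there, from -0.01 to 2.79, with 104 above 0, 88 at 0.5 or more and 27 at 1 or more. Over all 5949 genes the median was -0.03 and 46.9% were above 0. Both high light libraries lay above all 3 dark libraries for 90 of the 106 genes, against 16.2% of all genes that were higher without overlap. None lay below them.

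Few of these differences passed the test on their own. In edgeR's test 4 of the 106 genes were called higher in parental high light, where 0.141% of all genes were, and 83 had an unadjusted p under 0.05 and a positive fold, where 8.12% of all genes did. The fitted log2 fold changes of the 106 genes had a median of 0.87 and all were positive. Over 23 other settings the median was 0.71 to 0.96, with 102 to 106 genes above 0. There were 2 high light libraries behind the count of 4, and leaving out 1 library gave values from 1 to 9. It was 1 without parental dark replicate 2 or 3, without any of the 3 parental low light libraries, without any of the 3 bPAC dark libraries, without bPAC low light replicate 2, without bPAC high light replicate 1 or without parental high light replicate 2. It was 2 without bPAC low light replicate 1 or 3 and 9 without bPAC low light replicate 4 or bPAC high light replicate 2. DESeq2 called 26.

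The 4 genes were ENSCAFG00000017937, ENSCAFG00000010351, ENSCAFG00000030114 and ENSCAFG00000029098, the last of which was named after its values were seen. ENSCAFG00000010351 had 87.0 and 155 CPM in parental high light, against 49.0, 31.4 and 45.5 CPM in parental dark (log2 fold change 1.56, SE 0.29, edgeR adjusted p = 0.0393). ENSCAFG00000030114 had 27.8 and 27.0 CPM, against 14.2, 8.16 and 11.9 CPM (log2 fold change 1.29, SE 0.26, edgeR adjusted p = 0.0493). ENSCAFG00000029098 had 68.9 and 76.2 CPM, against 35.4, 24.8 and 30.7 CPM (log2 fold change 1.30, SE 0.26, edgeR adjusted p = 0.0493). The groups did not overlap for any of these genes, but their calls held under only 11, 6 and 7 of the 23 other settings, in this order, with adjusted p-values up to 0.352, 0.32 and 0.32.

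At the other end, ENSCAFG00000005461 was not above its dark level in parental high light by library sums. It had 6.52 and 6.74 CPM there, against 5.62, 4.53 and 9.92 CPM in parental dark, while parental low light held 14.8, 20.3 and 14.1 CPM. The high light values lay within the range of the dark ones. In bPAC cells it stood at 14.9, 10.3 and 13.5 CPM in the dark, 63.3, 49.9, 37.5 and 52.2 CPM in low light and 29.2, 42.4 and 20.1 CPM in high light, with no overlap between lit and dark libraries. ENSCAFG00000003438, ENSCAFG00000014578 and ENSCAFG00000031003 were the others among the 4 lowest parental high light folds, at -0.01, 0.11 and 0.12. The test did not call any of these 4 between high light and dark in parental cells (edgeR adjusted p = 0.955, 0.877 and 0.872 for the last 3 and 0.966 for ENSCAFG00000005461), which does not show that they were equal.

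**Figure D2:**
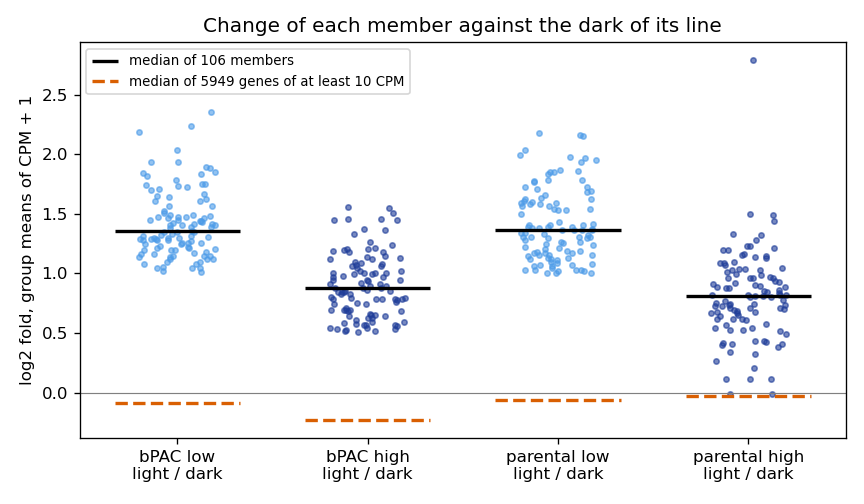
Log2 fold of each of the 106 genes (dots; vertical axis, group means of CPM + 1) in 4 comparisons of lit with dark cells; the black line is their median and the dashed line the median of all 5949 genes of at least 10 CPM. The rule set a threshold in the bPAC low, bPAC high and parental low light columns; the parental high light column, where it set none, spreads from -0.01 to 2.79 around a median of 0.81.

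The doses were then compared with each other. For 97 of the 106 genes the group means ran in the same order in both lines, with low light highest, high light next and dark lowest. Taken by line, this held for 100 genes in bPAC and 102 in parental cells. Of the gain from dark to low light, the median gene kept 51.6% at the high dose in bPAC cells and 45.2% in parental cells. The share kept had an interquartile range of 37.4% to 66.3% in bPAC and 30.0% to 61.5% in parental cells. Because the rule asked a larger fold at low than at high light, it favours this order, and low light libraries that were high by chance favour it as well.

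In parental cells the log2 change of high over low light had a median of -0.58 over the 106 genes, with 104 below 0, where all 5949 genes had a median of 0.05. Both high light libraries lay below all 3 low light libraries for 78 of the genes, against 18.3% of all genes that were lower without overlap. In edgeR's test none of the 106 was called in either direction, where 0.0117% of all genes were, while 55 had an unadjusted p under 0.05 and a negative fold, where 7.74% of all genes did. DESeq2 called 5 of them, all lower. In bPAC cells the median was -0.49, with 100 below 0 and 41 genes lower without overlap, against 20.3% of all genes. These bPAC values depend on how libraries are scaled. When the libraries were scaled by TMM, which sets them by the bulk of genes instead of by their sums, the median was -0.29, with 86 below 0 and 16 genes lower without overlap, against 11.3% of all genes. The median log2 change of all tested genes was 0.003 with TMM and -0.198 without it in this comparison, and 0.035 with TMM and -0.281 without it between bPAC high light and dark. On the TMM scale the median share of the low light gain kept at the high dose was 70.8% in bPAC and 46.6% in parental cells. The high light sum was then 2.54 times the dark sum in bPAC and 1.98 times in parental cells.

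The test, which uses TMM, called 6 of the 106 genes lower in bPAC high than low light, where 5.03% of all genes were. In this direction the set was called about as often as other genes. None of the 106 was called higher, where 442 of the 8530 genes tested were. The 6 genes were ENSCAFG00000029129, ENSCAFG00000016783, ENSCAFG00000019513, ENSCAFG00000028760, ENSCAFG00000029044 and ENSCAFG00000032012, the last pair named after their values were seen. ENSCAFG00000029129 had 4.47, 9.09 and 5.69 CPM in bPAC high light, against 21.96, 21.4, 11.04 and 15.7 CPM in bPAC low light (log2 fold change -1.24, SE 0.33, edgeR adjusted p = 0.0242). In parental high light it stood at 6.77 and 7.99 CPM, against 17.5, 21.8 and 17.3 CPM in parental low light. With libraries scaled by their sums, the high and low light groups did not overlap in either line. On this scale 17.2% of the low light gain was kept in bPAC and 18.2% in parental cells. With TMM the bPAC groups overlapped, as bPAC high light replicate 2 lay above bPAC low light replicate 3. Without bPAC high light replicate 1 none of the 106 genes was called, without bPAC low light replicate 1 or 4 the count was 2, and it was 10 without bPAC dark replicate 1 and 16 without bPAC low light replicate 2. With only bPAC high and low light in the fit it was 0.

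Some genes did not lose level at the high dose, and their number depends on the scaling. With libraries scaled by their sums, 6 of the 106 were higher in bPAC high than low light, and 2 were in parental cells. With TMM the counts were 20 in bPAC and 3 in parental cells. ENSCAFG00000015605 was one in both lines, at 255 ± 27.0 CPM in bPAC high light (SD, n = 3) against 209 ± 37.9 CPM in bPAC low light (SD, n = 4), and at 300.5 ± 172 CPM in parental high light (SD, n = 2) against 280 ± 73.6 CPM in parental low light (SD, n = 3). The high and low light libraries overlapped in both lines. Across the 106 genes, the changes from low to high light in bPAC and in parental cells, which share no library, correlated at Pearson's r = 0.456, and at r = 0.577 without ENSCAFG00000017937. Over all 5949 genes r was 0.519. Genes are not independent replicates, and the points of a line share its libraries and their scaling.

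**Figure D3:**
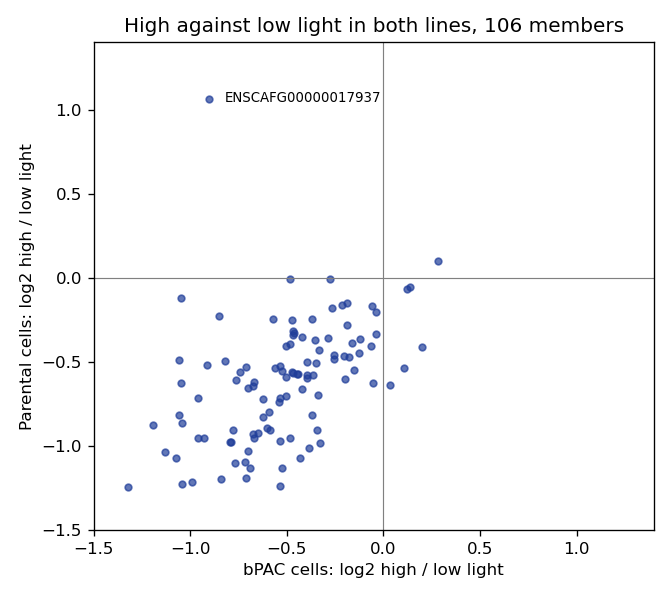
Log2 ratio of high to low light for each of the 106 genes, in bPAC cells (horizontal axis) and parental cells (vertical axis), from group means of CPM + 1. Of the 106 genes, 99 lay below 0 on both axes; ENSCAFG00000017937 stood apart at -0.90 in bPAC and 1.06 in parental cells.

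ENSCAFG00000017937 had the highest fold of the set in parental high light. In bPAC cells it stood at 273, 172 and 155 CPM in the dark, 1328, 1157, 782 and 854 CPM in low light and 533, 627 and 490 CPM in high light. In parental cells it stood at 209, 161 and 242 CPM in the dark, 696, 759 and 577 CPM in low light and 1535 and 1298 CPM in high light. The group means ran in a different order in the lines, with high light between dark and low light in bPAC cells and above both in parental cells. With libraries scaled by their sums, no groups overlapped in either line. With TMM, bPAC high light replicate 2 lay above bPAC low light replicate 3, so these 2 groups overlapped. Parental high light exceeded parental dark by a log2 fold change of 2.86 (SE 0.27, edgeR adjusted p = 2.03e-05), a call that held under all 23 other settings. Parental high over low light gave 1.07 (SE 0.27, edgeR adjusted p = 0.182) and bPAC high over low light -0.69 (SE 0.23, edgeR adjusted p = 0.0625), neither of which passed. At high light the gene was lower in bPAC than in parental cells, at a log2 fold change of -1.08 (SE 0.27, edgeR adjusted p = 0.0125). In the dark the lines differed by -0.01 (SE 0.24, edgeR adjusted p = 0.984). The tests of a difference in response between the lines did not pass: the interaction, bPAC minus parental, was -1.07 for high light over dark (SE 0.36, edgeR adjusted p = 0.227) and -1.76 for high over low light (SE 0.35, edgeR adjusted p = 0.0714).

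Interaction terms compared the response of bPAC cells with that of parental cells. The rule asked the same low light fold of both lines and so favours a small difference between them there, and nothing is read from that count. For low light against dark, edgeR called none of the 106 genes, where 0.0352% of all genes were, and 2 had an unadjusted p under 0.05, where 5.94% of all genes did. DESeq2 also called none. The fitted difference, bPAC minus parental, had a median of 0.11 on the log2 scale and ran from -0.81 to 1.08. The median SE of a single gene's difference was 0.36. A p that misses the threshold does not show that the lines responded alike. For high light against dark, none was called either by edgeR or by DESeq2, where edgeR called 0.504% of all genes, and 5 had an unadjusted p under 0.05, where 13.9% of all genes did. The median difference was 0.38, and 0.10 with libraries scaled by their sums. The rule had a threshold for bPAC and none for parental high light, which favours a positive difference here. For high against low light, a comparison added after the values were seen, none was called by edgeR, where 0.0234% of all genes were, and 7 had an unadjusted p under 0.05, where 6.94% of all genes did. DESeq2 called 1.

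The lines could also differ in level. In the dark, of which the rule asked nothing between the lines, the 106 genes had a median log2 ratio of bPAC to parental of 0.05, from -1.76 to 1.201. The test called 3 higher in bPAC cells, where 3.61% of all genes were called higher, and 1 lower, where 2.92% were. ENSCAFG00000016783 was higher in bPAC dark, at 3.20, 2.85 and 2.20 CPM against 0.62, 0.30 and 0.97 CPM in parental dark (log2 fold change 2.06, SE 0.49, edgeR adjusted p = 0.0156). These parental dark values rest on only 6, 1 and 4 reads. The gene kept that order when lit, at 19.6, 9.55, 9.87 and 9.95 CPM in bPAC low light against 3.55, 1.90 and 3.23 CPM in parental low light. ENSCAFG00000009282 averaged 36.6 ± 8.68 CPM in bPAC dark and 18.8 ± 4.34 CPM in parental dark (SD, n = 3 each; log2 fold change 0.97, SE 0.23, edgeR adjusted p = 0.0142). ENSCAFG00000011197 averaged 36.7 ± 11.4 CPM in bPAC dark and 17.4 ± 4.69 CPM in parental dark (SD, n = 3 each; log2 fold change 1.10, SE 0.29, edgeR adjusted p = 0.0266). ENSCAFG00000010090 went the other way, at 107, 64.6 and 83.8 CPM in bPAC dark against 400, 182 and 293 CPM in parental dark (log2 fold change -1.77, SE 0.40, edgeR adjusted p = 0.0157). Its log2 fold in low light, a value the rule used, was 1.51 in bPAC and 1.34 in parental cells. The count of 4 was 1 without parental dark replicate 2, with no gene called higher in bPAC cells. It was 2 without parental dark replicate 3 or any 1 of the 3 bPAC dark libraries.

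At low light, 5 of the 106 were called higher in bPAC cells, where 4.17% of all genes were, and 3 lower, where 2.83% were. The 4 genes called in the dark were among these 8. Of the others, ENSCAFG00000005461 had the values given above (log2 fold change 1.71, SE 0.30, edgeR adjusted p = 0.00143), and ENSCAFG00000006224 had 109, 72.1, 109 and 156 CPM in bPAC low light against 63.9, 60.6 and 51.4 CPM in parental low light (log2 fold change 1.02, SE 0.29, edgeR adjusted p = 0.0424). The total of 8 was 5 without bPAC low light replicate 1. Dropping replicate 1 or 2 of parental low light gave 5 or 4. At high light, 16 were called higher, where 6.58% of all genes were, and 1 lower, where 5.63% were, the last being ENSCAFG00000017937. Since bPAC high light had a threshold and parental high light had none, nothing is read from that count. The total of 17 was 10 with libraries scaled by their sums. It was 9 and 3 without parental high light replicates 1 and 2, and 10, 6 and 26 without bPAC high light replicates 1, 2 and 3.

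**Figure D4:**
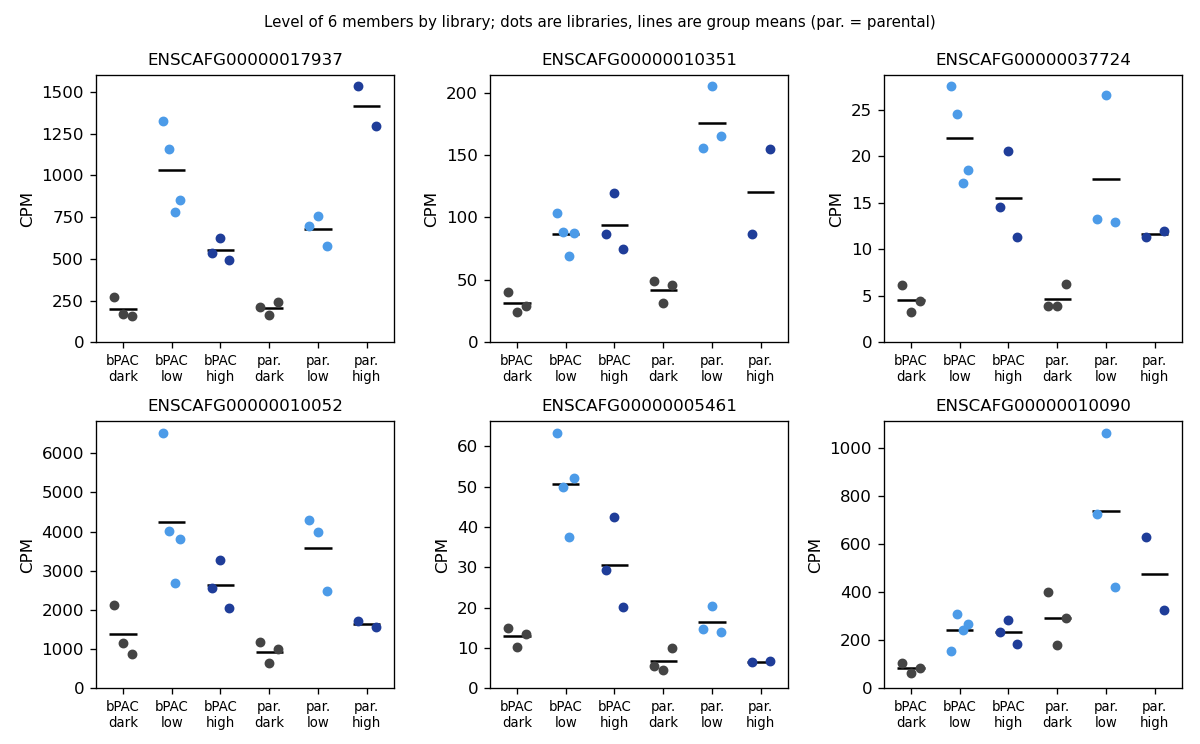
Level (vertical axes, CPM, each from 0) of 6 genes of the set in each library, by line and dose; dots are libraries and lines are group means. ENSCAFG00000017937 was highest in parental high light, at 1535 and 1298 CPM, ENSCAFG00000005461 lay within the range of its dark libraries there, and ENSCAFG00000010090 was lower in bPAC than in parental cells in the dark, with a log2 fold change of -1.77.

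Taken over single libraries, 77 of the 106 genes were higher without overlap in all 4 comparisons of a dose with its line's dark. Of all genes of at least 10 CPM, 3.71% were. For 58 genes every one of the 12 lit libraries lay above every one of the 6 dark libraries of both lines, where 2.0% of all genes did. The rule used 3 of these comparisons, so nothing is read from the shares. Outside the set, the genes whose 6 group means followed its average course most closely were ENSCAFG00000013209, ENSCAFG00000031693 and ENSCAFG00000007054, with Pearson's r of 0.995, 0.992 and 0.991 over the 6 means. Their folds were smaller, at 0.57, 0.64 and 0.85 in bPAC low light and 0.58, 0.65 and 0.68 in parental low light.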

How the data were processed

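The 18 libraries were made from dog MDCKI cells with Lexogen's SPLIT extraction and QuantSeq 3' FWD kits, per the labels' protocols, and the submitters' processing notes name the build CanFam3.1. Which aligner, counter and annotation were used is not given in the sources used here. For every library the authors deposited raw read counts, with 32220 gene IDs and 5 rows without a gene, which were kept out of all totals. The IDs matched 0 entries of a RefSeq table of another assembly, so planned lists of pathway genes and markers could not be used and no sequence is shown. Members were chosen on CPM by sums of gene reads; members, lists and rules were chosen with earlier results of these data known.

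All libraries entered 1 model of 6 groups, with filterByExpr (minimum count 10; 8530 genes kept, all 106 members among them), TMM scaling and edgeR 4.0.16's quasi-likelihood test (robust, R 4.3.3), Benjamini-Hochberg adjusted over all genes at 0.05. The script was tested on simulated data. SEs are the absolute log2 fold change over the square root of F. Chi-square per degree of freedom between replicates lay above 1 in all 19 pairs, so none was counted as a repeat. Named genes were the members farthest inside the thresholds, the most abundant, the highest and lowest in parental high light, in high minus low and in bPAC minus parental fold, those called between lines, and those at each threshold. Alternatives were DESeq2 1.42.0, its size factors, no filter, only the groups compared, each library left out and, added after the data were seen, no TMM.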

Additional observations from a re-analysis of the deposited data

Results flagged for a closer look

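In the 4 bPAC low light libraries, 43 values were tested for a library far from the others, and 2 were marked, where chance marks about 1 in 20. ENSCAFG00000016783 had 19.6 CPM in replicate 1 and 9.55 to 9.95 CPM in the others, a gap of 0.96 of the whole range. ENSCAFG00000028760 had 96.1 CPM in replicate 4 and 63.0 to 66.6 CPM in the others, a gap of 0.892 of the range.

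ENSCAFG00000017937 moved in opposite directions from low to high light in the lines. With libraries scaled by their sums, every bPAC high light library lay below every bPAC low light library. Both parental high light libraries lay above every parental low light library. With TMM the bPAC groups overlapped, as bPAC high light replicate 2 lay above bPAC low light replicate 3. The difference, bPAC minus parental, was -1.967 on the log2 scale of CPM + 1. The interaction in the fitted model was -1.76 (SE 0.35, edgeR adjusted p = 0.0714), and over 23 other settings it lay between -1.97 and -1.58 with adjusted p-values of 3.74e-05 to 0.238, of which 3 passed, among them DESeq2's test.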

How the results depend on the processing

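With 4 genes called in parental high light over dark, the count was 2 with DESeq2 size factors, 40 with no filter on low counts, 26 by DESeq2's test, 1 with only the groups compared and 1 to 9 on leaving out a library. For parental high over low light, 0 by edgeR, it was 4 with no filter and 5 by DESeq2's test. For bPAC high over low light, 6, it was 29 with no TMM, 12 with no filter, 11 by DESeq2's test, 0 with only the groups compared and 0 to 16 on leaving out a library. Between the lines, the dark count of 4 was 9 with no filter, 1 with only the groups compared and 1 to 5 on leaving out a library, the low light count of 8 was 4 to 9 and the high light count of 17 was 3 to 26 on leaving out a library, and 10 with no TMM. The interaction of line and high light, 0, was 1 with no filter, and that of line and high over low light, 0, was 1 with no TMM, with no filter and by DESeq2's test. The causes were not tested. In parental high light over dark, ENSCAFG00000003438 lay between -0.226 and 0.294 on leaving out a library, with -0.226 without parental high light replicate 1 and -0.042 without parental dark replicate 1. ENSCAFG00000005461 was -0.007 with no TMM and lay between -0.179 and 0.359 on leaving out a library, with -0.179 and -0.070 without parental dark replicates 2 and 1. ENSCAFG00000014578 lay between -0.029, without parental dark replicate 2, and 0.435. The median of the 106 genes kept its sign over 23 alternatives in every comparison tested except that of the lines in the dark, -0.067 to 0.216, and the interaction of line and low light, -0.028 to 0.271. The rule gave 159 genes on TMM-scaled CPM, 111 and 73 with pseudocounts of 0.5 and 5, 118 and 96 with level minimums of 5 and 20 CPM, and 78 to 130 on leaving out a library. No paired analysis was possible because the labels give no pairing of libraries across groups. With 2 to 4 libraries a group, members at a few CPM rest on as few as 1 read.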
